A study of Caenorhabditis elegans with 2 samples.

Results

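The 10 genes described here guide and drive the migration of the distal tip cells of Caenorhabditis elegans, and the question was where the transcription factor BLMP-1 had peaks at them. They were chosen by name from 19973 protein-coding genes: the netrin ligand gene unc-6 and its receptor genes unc-5 and unc-40, the matrix genes gon-1, mig-17 and mig-6, and the integrin and Rac genes ina-1, mig-2, ced-10 and ced-5. Each gene was given a window of its annotated body and the 5 kb before its first transcript start, and every peak summit in that window was counted. BLMP-1, the worm homolog of mammalian Blimp-1, was mapped by ChIP-seq, in which DNA fragments precipitated with a protein are sequenced, from entire larvae of the first stage (L1) and both sexes. The animals were of strain OP109, genotype unc-119(ed3) III with the insertion wgIs109, which carries an eGFP-tagged blmp-1, and the single group held 2 biological replicates. No other genotype, stage or treatment was compared, and the control libraries named in the labels were not analysed here. The files hold peaks and no expression, so the labelled tissue was not checked against marker genes, and in whole larvae a peak in a few cells and a weak peak in many cannot be told apart.

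The distal tip cells lead the growing arms of the gonad away from the midline, turn them from the ventral to the dorsal side, and bring them back. Netrin (UNC-6) is made ventrally and repels cells that carry UNC-5, usually together with UNC-40, while secreted proteases, papilin, integrins and Rac signalling act on the path through the basement membrane. Published genetic work places blmp-1 with daf-12 and lin-29 among the genes that time the dorsal turn and the onset of unc-5 transcription in these cells. The turn comes in later larval stages than the one profiled, and the distal tip cells are born only in the course of L1, so they can be no more than a very small share of the cells sampled.

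The authors deposited 4 peak lists on genome build ce11. The optimal list held 8751 peaks kept by their analysis of irreproducible discovery rate (IDR), which were the 8751 strongest of the pooled list. The pooled list held 30000 peaks, background included, and the lists of replicates 1 and 2 held 27310 and 30000. A peak's signal is the value of the authors' caller. No source used here states its scale, so signals were compared only within a list. Ranks were also set side by side between lists, although the lists differ in length. In the optimal list the signal ran from 62.0 to 4255 with a median of 147. Read depth was unknown. A rank of 1 is the strongest peak of a list, and a summit was counted as found again in a replicate when that replicate had a summit within 100 bp.

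Windows of 151 bases around 6 of the summits are shown to set the sites at unc-6, unc-5, gon-1 and mig-2 that hold a match to AAAGTGAAA, the short sequence tied to BLMP-1 and Blimp-1 binding, against the site at ced-5 that holds none. They are plus-strand sequence of the RefSeq genome of the same assembly, centred on the optimal summit. Capitals mark AAAGTGAAA or its reverse complement with at most 1 mismatch. At gon-1, capitals of neighbouring matches run together where they touch or overlap.
unc-6 intron, chrX:6894293-6894443: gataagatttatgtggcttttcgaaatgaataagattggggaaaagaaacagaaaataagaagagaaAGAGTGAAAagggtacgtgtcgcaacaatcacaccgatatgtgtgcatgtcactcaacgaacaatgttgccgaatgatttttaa
unc-5 intron, chrIV:5514684-5514834: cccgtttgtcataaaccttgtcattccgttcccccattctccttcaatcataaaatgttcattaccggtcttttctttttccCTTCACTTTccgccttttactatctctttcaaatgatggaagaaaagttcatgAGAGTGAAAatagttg
gon-1 far upstream, chrIV:9957132-9957282: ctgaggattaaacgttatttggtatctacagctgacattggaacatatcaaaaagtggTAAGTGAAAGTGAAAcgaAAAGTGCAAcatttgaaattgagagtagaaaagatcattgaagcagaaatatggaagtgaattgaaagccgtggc
gon-1 near the start, chrIV:9953215-9953365: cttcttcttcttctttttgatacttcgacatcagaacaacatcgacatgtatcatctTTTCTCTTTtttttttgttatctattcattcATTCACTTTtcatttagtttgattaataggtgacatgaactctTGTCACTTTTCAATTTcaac
mig-2 upstream, chrX:11547032-11547182: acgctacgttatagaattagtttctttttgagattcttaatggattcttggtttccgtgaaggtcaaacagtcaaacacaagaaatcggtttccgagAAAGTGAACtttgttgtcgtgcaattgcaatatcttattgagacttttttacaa
ced-5 upstream, chrIV:10483826-10483976: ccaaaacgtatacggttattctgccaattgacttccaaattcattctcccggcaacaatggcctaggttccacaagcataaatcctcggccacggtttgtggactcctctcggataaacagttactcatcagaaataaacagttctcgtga

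BLMP-1 had 12 optimal summits in the windows, spread over 7 of the 10 genes. All 3 guidance genes had at least 1, as did 1 of the 3 matrix genes (gon-1) and 3 of the 4 integrin and Rac genes (ina-1, mig-2 and ced-5). The genes mig-17, mig-6 and ced-10 had none. Of all protein-coding genes, 42.6% had an optimal summit in the same window. The 10 genes had long windows, with a median of 13.1 kb against 7.03 kb over all genes, and longer windows held a summit more often. With windows under 10 kb, 2 of 4 of the genes had one, against 39.4% of all genes. From 10 to 20 kb 3 of 3 did, against 57.2%, and from 20 kb on 2 of 3, against 71.5%. Per kb of upstream sequence the 10 genes held 0.120 optimal summits and all genes 0.118, and per kb of gene body they held 0.056 and all genes 0.047. Measured per kb, then, the set was close to all protein-coding genes, on only 6 summits upstream and 6 in gene bodies. The text below is on where in each gene the summits lay.

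**Figure D1:**
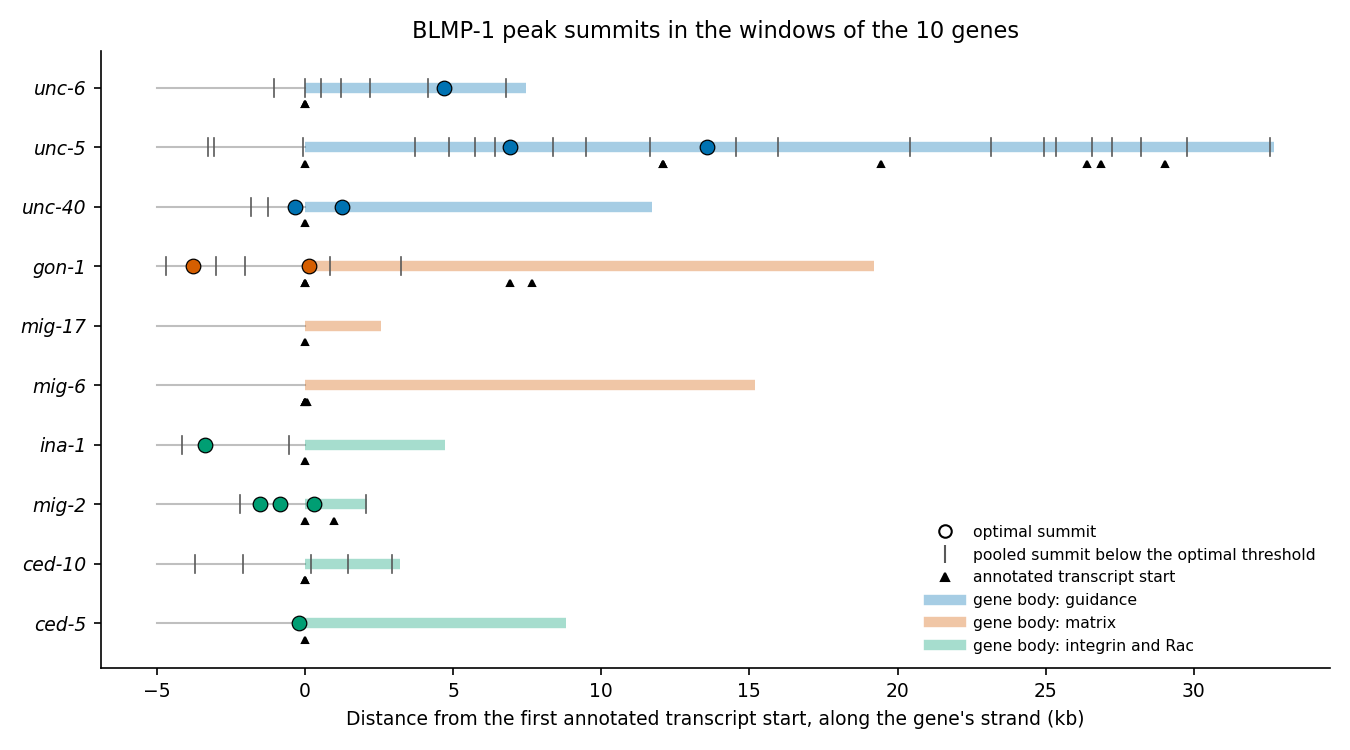
Each row is 1 gene. The x axis is the distance in kb from its first annotated transcript start along its strand, bars are gene bodies, thin lines the 5 kb before them, filled circles the 12 optimal summits, ticks the 44 pooled summits below the optimal threshold and triangles the annotated starts. The circles lie inside the gene at unc-6 and unc-5, on both sides of the start at unc-40, gon-1 and mig-2, and before it at ina-1 and ced-5, and the rows of mig-17 and mig-6 are empty.

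Netrin itself had 1 weak optimal summit. It lay in an intron of unc-6, 4694 bp downstream of the gene's start (chrX:6894200-6894535), with rank 7672 and signal 76.3. Replicate 1 had it at rank 9493 (signal 20.1) and replicate 2 at rank 7513 (signal 53.0), so in replicate 1 it fell outside the 8751 strongest peaks. The sequence printed above holds 1 match, AGAGTGAAA, centred 4 bp from the summit. It also holds 1 exact GATAAG, the site of GATA factors, at the edge of the searched window. Another 7 pooled summits lay below the optimal threshold, at ranks from 16805 to 28570, and 1 of them was found again in both replicates. One of the 7, at rank 28570, lay 19 bp inside the start of the gene.

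The netrin receptor gene unc-5, whose product mediates repulsion, had 2 optimal summits, both in introns and neither near a start. Its annotated transcripts begin at 7 starts spread over 29017 bp, and none of these had an optimal summit from 1500 bp upstream to 500 bp downstream. The stronger summit (chrIV:5514591-5514926, rank 4473, signal 144) lay 1504 bp downstream of the start of transcript B0273.4b.1. Replicates 1 and 2 had it at ranks 5246 and 4181, with signals 41.8 and 103. It holds 2 matches, the nearer AAAGTGAAG, read on the minus strand, which is that of the gene, and centred 11 bp from the summit. The weaker summit (chrIV:5521240-5521575, rank 6988, signal 87.9) lay 6649 bp from it and 5143 bp upstream of the start of transcript B0273.4a.1, in an intron of the longest form, B0273.4c.1, and over the non-coding RNA gene B0273.114. It ranked 9071 in replicate 1 and 6398 in replicate 2, and its only match, centred 71 bp from the summit, was at the edge of the searched window. The gene also held many weak peaks: 23 pooled summits in 37.7 kb, of which 21 lay below the optimal threshold at signals of 38.0 or less. Both replicates had 5 of these 21, replicate 1 alone had 5, replicate 2 alone had 8, and 3 were in neither list. Of the 404 genes with windows of 20 kb or more, 28 had at least as many pooled summits, unc-5 included. The strongest of the weak summits, at rank 11623, lay 420 bp upstream of the start of B0273.4a.1, and both replicates had it, at ranks 10758 and 15288.

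The receptor gene unc-40, the worm homolog of DCC, had the strongest summit of the set. It lay 339 bp upstream of its only start (chrI:5691762-5691873) and ranked 1734 with a signal of 293. It was strong in both replicates, at ranks 2873 and 1517 with signals of 71.7 and 216. A second optimal summit lay 1260 bp downstream of the start in an intron (chrI:5690075-5690410, rank 5048, signal 128), 1599 bp from the first. This one differed between the replicates: it ranked 19234 in replicate 1 (signal 10.6) and 3997 in replicate 2 (signal 107). Neither summit had a match to AAAGTGAAA within 75 bp. The 2 weaker pooled summits of the window, at ranks 13588 and 14536, lay 1259 and 1813 bp upstream of unc-40. Both were inside the neighbouring nucleoporin gene npp-7, which runs the other way, 498 and 1052 bp from its start. The strongest summit thus lay between the starts of unc-40 and npp-7, nearer to that of unc-40. Which of the 2 genes it acts on was not tested.

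Among the matrix genes, gon-1 had 2 optimal summits and mig-17 and mig-6 had none. GON-1 is a secreted ADAMTS metalloprotease that the gonad arms need to elongate. One summit lay 139 bp downstream of its nearest start, that of transcript F25H8.3c, in an intron (chrIV:9953199-9953365, rank 3490, signal 181). The other lay 3774 bp upstream (chrIV:9957158-9957281, rank 3355, signal 187), with no protein-coding gene in the 5 kb before gon-1 and beside the non-coding RNA gene T13H10.7. Both had similar ranks in the replicates. The one near the start had ranks of 3565 and 3536 and signals of 61.2 and 121 in replicates 1 and 2. The distant one had ranks of 2527 and 3414 and signals of 79.0 and 125. Its summits lay 68 and 7 bp from the optimal one in replicates 1 and 2. The 2 sites also held the most matches. The upstream window has 3, the exact AAAGTGAAA among them, whose first bases overlap the last bases of TAAGTGAAA, and it was the only exact match at the 12 summits. The window near the start has 4 with 1 mismatch each, all on the minus strand, the strand of gon-1. Another 5 pooled summits of the window, at ranks from 16386 to 27122, lay below the optimal threshold, and 1 of them, 3013 bp upstream, was in both replicates' lists. The internal starts of gon-1, 6936 and 7658 bp from the first, had no optimal summit from 1500 bp upstream to 500 bp downstream.

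The ADAMTS gene mig-17, whose product acts on the gonadal basement membrane, had no summit of any of the 4 lists in its 7.57 kb window. Its nearest optimal summit lay 16512 bp downstream of its start, beside the start of zipt-16. An empty window was common at this length: 6058 of the 16741 genes with windows under 10 kb had no pooled summit. The papilin gene mig-6 had no optimal and no pooled summit in 20.2 kb, which held for 30 of the 404 genes with windows of 20 kb or more. Replicate 2 had none there either. Replicate 1 had 2, and the stronger was not weak: at rank 4434 of that list (signal 49.9) it lay in an intron of mig-6 (chrV:7837864-7838179), 113 bp from the start of the transthyretin-related gene ttr-33. The other, at rank 16932, lay over the 3′ UTR of mig-6, 197 bp from the start of grd-8. Neither had a summit of replicate 2 within 100 bp.

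Of the integrin and Rac genes, mig-2 had the most optimal summits of the set, and ced-10 had none. MIG-2 is a Rac-related GTPase. Its 3 optimal summits in a 7.08 kb window came to 0.423 per kb, and 618 of all genes had more per kb. The strongest (chrX:11546999-11547201, rank 2320, signal 242) lay 1501 bp upstream of the first start of mig-2 and 612 bp from the start of selt-1.1, which runs the other way, so it is nearer to the neighbour. It was strong in both replicates, at ranks 1502 and 3035 with signals of 113 and 137, and holds 1 match, AAAGTGAAC. The second (chrX:11547601-11547936, rank 7542, signal 78.4) lay 662 bp on, 839 bp upstream of mig-2. It ranked 5825 in replicate 2, with a signal of 73.9, and replicate 1 had no summit within 100 bp. The third (chrX:11548753-11549088, rank 5139, signal 126) lay in a coding exon, 313 bp downstream of the start. Replicate 1 had it at rank 9996 (signal 18.8) and replicate 2 at rank 3998 (signal 107). The 2 summits nearest to mig-2 thus rested mostly on replicate 2, and neither holds a match to AAAGTGAAA. A pooled summit at rank 12175, with a rank of 8246 in replicate 1 and no counterpart in replicate 2, lay 64 bp from the start of selt-1.1.

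The gene ina-1, which encodes an integrin α subunit, had 1 optimal summit, 3379 bp upstream (chrIII:9176013-9176348, rank 5031, signal 128). Replicates 1 and 2 had it at ranks 5815 and 5390, with signals of 37.5 and 80.9. It had no match to AAAGTGAAA and 1 GAGAGA. A pooled summit closer to the gene, 528 bp upstream, just missed the optimal list at rank 9225 (signal 56.7), with ranks of 7220 and 11421 in replicates 1 and 2.

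The Rac gene ced-10 had 5 pooled summits, none of them optimal. The strongest ranked 13901 (signal 29.0), 2098 bp upstream and inside the neighbouring gene tsg-101. It was the 1 of the 5 that both replicates had, at ranks 13959 and 14977, 69 and 52 bp away on opposite sides of it. Of the 5, 3 were in neither replicate's list. Replicate 1 also had a summit 215 bp upstream of the start of ced-10 (rank 9695), again inside tsg-101 and without a counterpart in replicate 2. Another of its summits, in the 3′ UTR at rank 9165, lay 47 bp from one of replicate 2 at rank 17299. The gene of CED-5, the activator of CED-10 and a DOCK180 homolog, had a single summit, and it was the same one in all 4 lists. It lay 209 bp upstream of the only start (chrIV:10483733-10484068, rank 4043, signal 158), at ranks 4447 and 3804 and signals of 49.7 and 113 in replicates 1 and 2. It was 1 of 4 optimal summits of the set within 500 bp of a start of its own gene, beside the stronger one of unc-40, the one near the start of gon-1 and the coding one of mig-2.

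Across the set, the strongest summit ranked 1734, the median 4752 and the weakest 7672, against a median of 4376 for the optimal list, and 5 of the 12 were among its 4375 strongest. Of the 12 summits, 7 were among the 8751 strongest of both replicates and 5 in replicate 2 only, against 75.2% and 16.5% of all optimal summits. None was found among the strongest of replicate 1 only, against 7.29% of all. The 5 were those of unc-6, the weaker ones of unc-5 and unc-40 and 2 of mig-2. With support in both replicates required, 6 of the 10 genes kept a summit, against 35.7% of all genes, whose windows are shorter. The 6 that kept one were unc-5, unc-40, gon-1, ina-1, mig-2 and ced-5. For ina-1 this rested on the distance allowed, since its summit in replicate 1 lay 96 bp away, and with summits within 50 bp required 5 of the 12 were matched in both. With every peak of the replicates' lists allowed, 11 of the 12 were found again in both. Over all optimal summits, 8.22% had no summit within 100 bp in the whole list of replicate 1, and 1.62% had none in that of replicate 2. A summit of the pooled list lay in 8 of the 10 windows, against 67.1% of all genes, one of replicate 1 in 9, against 72.9%, and one of replicate 2 in 8, against 65.8%. Those lists include background, and here too the windows of all genes are shorter.

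**Figure D2:**
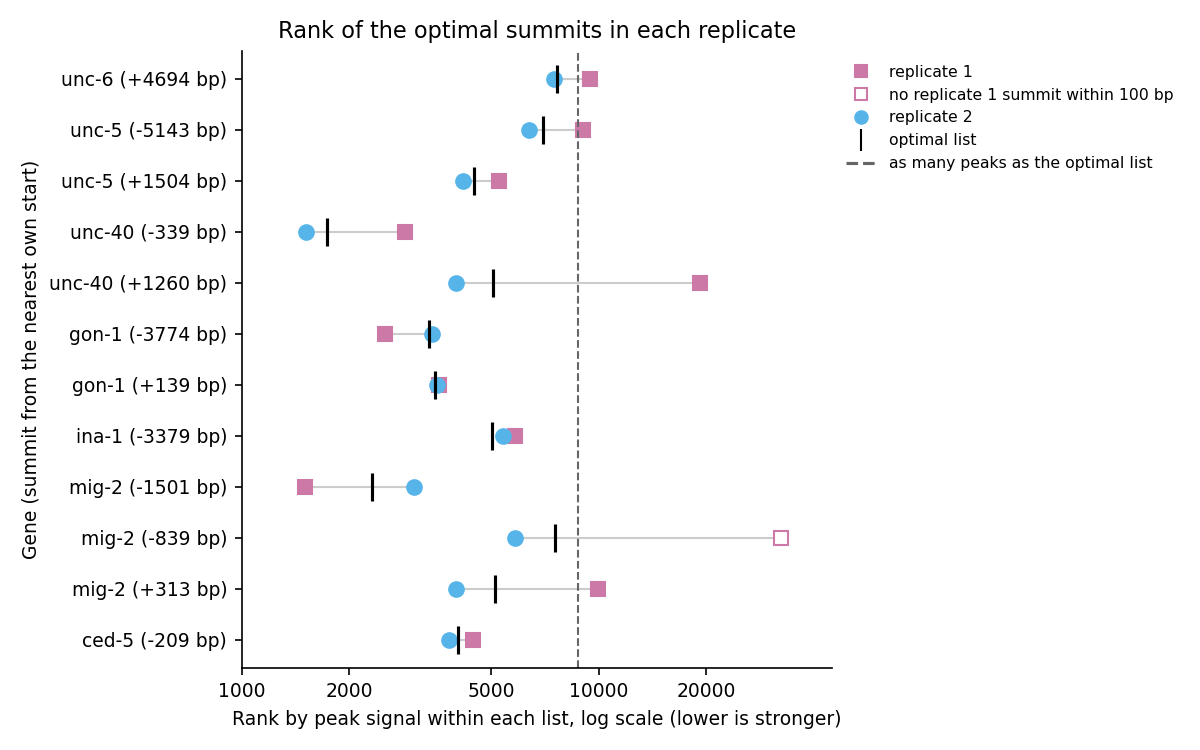
For each of the 12 optimal summits, labelled with its gene and its distance in bp from the nearest start of that gene (negative upstream), the rank by signal is shown on a log scale in replicate 1 (squares), replicate 2 (circles) and the optimal list (bars). The dashed line marks rank 8751. Both marks lie left of it for 7 summits, and replicate 1 lies right of it, or has no summit within 100 bp (open square), for the other 5.

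By place, upstream sequence held 6 of the 12, introns 5 and coding exons 1. Over all pairs of a protein-coding gene and an optimal summit in its window, 79.5% were upstream, 15.8% in introns and 1.37% in coding exons. The 10 genes have long bodies, with a median of 8.14 kb against 2.03 kb, and the part of that length in this difference was not tested. The median distance to the nearest start of the gene was 1380 bp. For 11 of the 12 the nearest protein-coding start belonged to the gene itself. None of the 12 lay within 1000 bp of a tRNA, rRNA, snRNA or snoRNA gene, against 3.81% of all optimal summits. In width, 8 of the 12 peaks had 336 bp, the width of 60.3% of the optimal list, and the 4 narrower ones were the strong summits of unc-40 and mig-2 and both of gon-1.

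**Figure D3:**
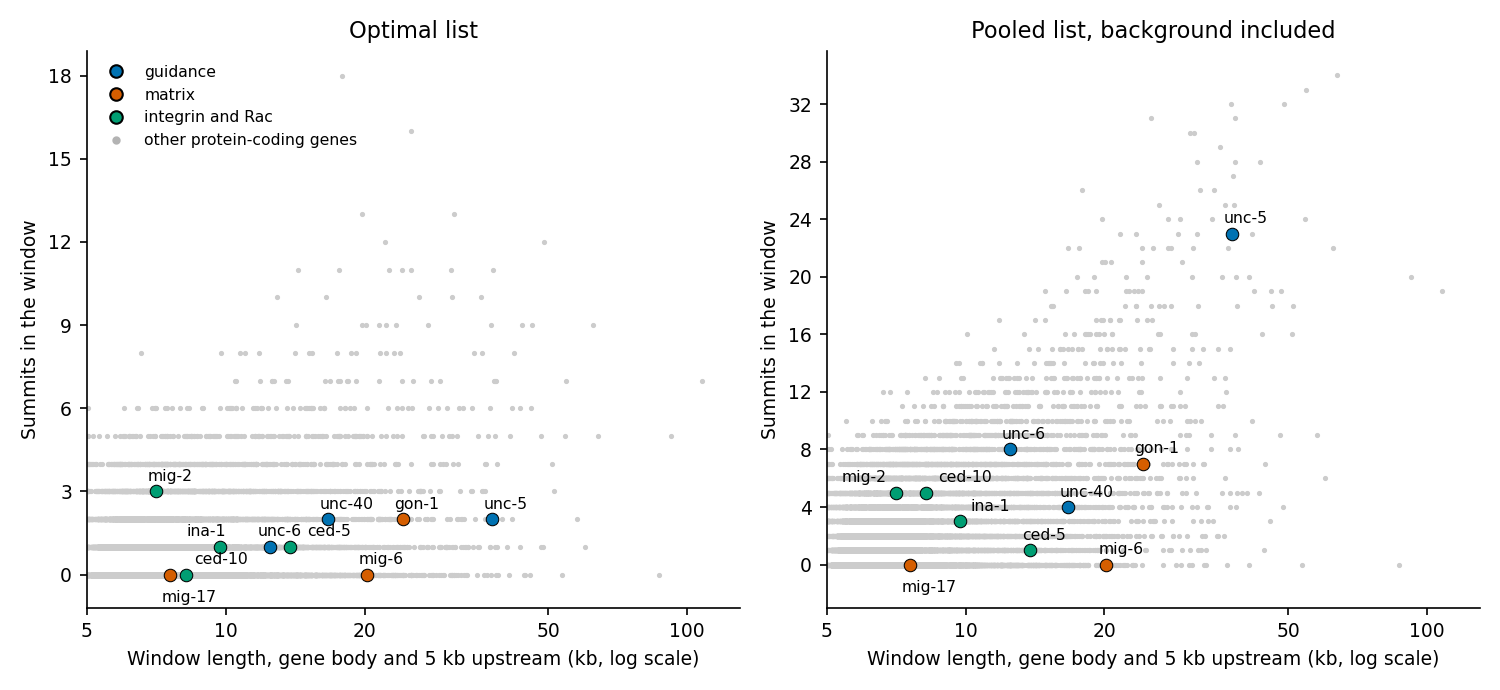
Each grey point is a protein-coding gene, with the length of its window in kb on a log scale and the number of summits of the optimal list (left) or the pooled list (right) in it. Coloured points are the 10 genes by role. Of these, unc-5 has 23 pooled summits and 2 optimal ones, mig-2 has 3 optimal ones in a short window, and mig-17 and mig-6 lie at 0 in both.

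A match to AAAGTGAAA with at most 1 mismatch lay within 75 bp of 6 of the 12 summits, against 32.0% of all optimal summits and 19.3% of windows 500 bp to either side of them. Windows 500 bp to the left and right of the 12 held one in 4 and 3 cases. An exact match was present at 1, against 5.42% of all. The 6 were those of unc-6, unc-5 (both), gon-1 (both) and the distant one of mig-2, so that the strongest summit of the set, at unc-40, was without one. The exact motif GATAAG was present at 1 of the 12, against 1140 of all 8751, and the GA repeat GAGAGA at 2, the weaker summit of unc-5 and that of ina-1, against 2973 of all 8751, on either strand. A match describes the letters and does not show that BLMP-1 bound there.

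The other genes of the pathway, taken from lists chosen by role, had an optimal summit in 36 of 53 cases, against 42.6% of all protein-coding genes, and 32 had one found among the 8751 strongest peaks of both replicates, against 35.7%. Their windows were also long, with medians from 9.80 kb to 14.9 kb over the 4 lists. Of 10 other guidance genes 7 had one, and the best of max-1 was nearest to the start of acly-2. The strongest were at sdn-1, which encodes syndecan, 816 bp upstream (rank 109, signal 1181), at unc-14 (rank 851, with no summit of replicate 2 within 100 bp) and at the lamellipodin gene mig-10 (rank 1386), in an intron. Of 15 other matrix genes 8 had one, with sqv-5, which encodes a chondroitin synthase, at rank 677, the perlecan gene unc-52 at 1182 and the type XVIII collagen gene cle-1 at 1862. The nearest start to the summit of cle-1 is that of rpb-3, and to that of unc-52 that of hhat-1. The other 5 with one were fbl-1, lam-2, mig-22, mig-23 and spon-1. For each of these too the strongest summit was nearest to another gene's start (F56H11.2, C54D1.7, K02D10.2, R07E4.3 and F10E7.5, in that order). The 7 without were emb-9, let-2, nid-1, epi-1, lam-1, lam-3 and mig-18.

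Of 17 other integrin, Rac and engulfment genes 14 had an optimal summit, and 10 had one among the strongest peaks of both replicates, against 42.6% and 35.7% of all protein-coding genes. The strongest was at rank 347 near pak-1, which encodes a p21-activated kinase. It lay 2348 bp upstream and nearer to the start of C45B2.6. For pat-3, ced-2, abl-1 and psr-1 too the strongest summit was nearest to another gene's start (ccdc-47, npp-8, M79.2 and ubc-9, in that order). The kinase gene mig-15 ranked 636 and unc-115, which encodes an actin-binding protein, 640. The genes rac-2, pat-2 and ced-12 had none. Of 11 genes of distal tip cell identity and timing 7 had one: lin-42, the Period homolog, ranked 131, the nuclear receptor gene daf-12 ranked 152, in an intron 3640 bp upstream of its nearest start, and the cyclin-dependent kinase inhibitor gene cki-1 ranked 358. The strongest summit of mig-14 was nearest to the start of R06B9.5. The genes lag-2, hlh-2, hlh-12 and nhr-67 had none. No summit of the 10 genes themselves was as strong as those of any of these first-ranked genes except cle-1.

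**Figure D4:**
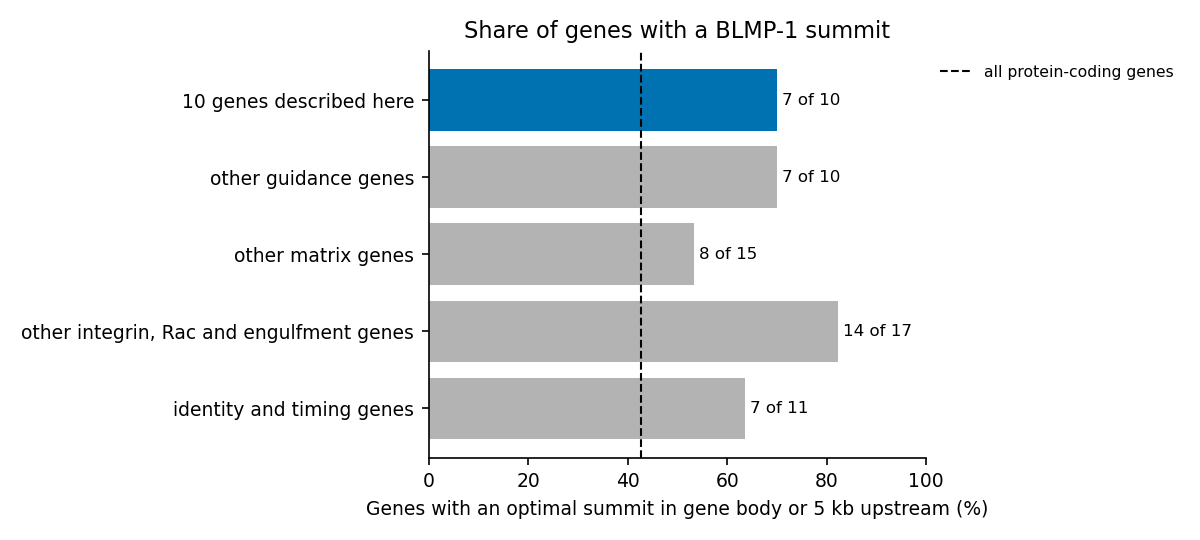
Bars give the percentage of genes with an optimal summit in the gene body or the 5 kb upstream, for the 10 genes and 4 lists of other pathway genes, with counts beside them. The dashed line is the 42.6% of all protein-coding genes, which have shorter windows than the genes in the bars. Counts run from 8 of 15 for the other matrix genes to 14 of 17 for the other integrin, Rac and engulfment genes.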

How the data were processed

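Per the labels there is 1 group with 2 biological replicates, and the assemblies are ce10 and ce11. Only the ce11 lists were used. Per the text listings deposited beside them, the lists are of narrowPeak type, called against a control on each replicate and on both together as input for IDR, which gave the optimal list. No source used here gives the aligner, the caller or the threshold of IDR. The deposited signal comes from the authors' caller. The deposited −log10 q-value, at most 3.83 in the optimal list, was not used to select peaks. Depth is unknown, so no precision follows from it.

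Summits are 1-based, start plus offset, with Ensembl release 115 gene models of WBcel235, the assembly of ce11, whose chromosome lengths hold all peaks. A window that reached into a neighbour was kept. A replicate's strongest peaks are its first 8751 by signal. Motifs were searched within 75 bp of summits on both strands. With 1 group and peaks that are not replicates, no test was run, and counts stand beside those of all protein-coding genes on the 6 nuclear chromosomes. Members, lists and motifs were chosen with earlier results of these data known. The genes named from each pathway list are its 3 with the strongest summits, except that the matrix list is named whole. Others are named for having none, for a strongest summit nearest to another gene's start, or as the neighbour of a summit. The genes blmp-1 and unc-119 were left out because the transgene carries their sequence. Window counts, replicate matches and the motif search were tested on simulated data. Computation used Python 3.11.15 with matplotlib 3.10.9. Alternatives were other windows, lists, distances, motif settings and each replicate left out.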

Additional observations from a re-analysis of the deposited data

How the results depend on the processing

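The 12 summits became 6 in gene bodies alone, 5 from 1500 bp upstream to 500 bp downstream of any start, 5 with the 4375 strongest optimal peaks and 56 with all pooled peaks. The 7 genes became 4 both near starts and with those strongest peaks, where 27.5% and 26.2% of all genes had a summit. In gene bodies alone 5 of the 10 genes had one, against 8.89% of all genes, whose bodies are shorter. The median of 0.076 summits per kb over the 10 genes became 0.052 with 2 kb upstream, 0.026 in gene bodies, 0.000 near starts and with the strongest peaks, and 0.299 with all pooled peaks. With the main window the median over all genes was 0.000, and the means were 0.093 for the 10 genes and 0.089 for all genes. Matches in both replicates, 7 of 12, became 5 within 50 bp (without those of ina-1 and the distant one of gon-1), 5 of 10 with 2 kb upstream, 11 with every replicate peak and 12 of 18 with 10 kb upstream. Motif matches, 6 of 12, became 1 with no mismatch and 3 of 5 among the strongest. With 1 replicate left out, the counts were 11 to 12 summits, 7 to 7 genes, 0.057 to 0.076 summits per kb and 5 to 6 summits with a match. Without replicate 2, that is on replicate 1 alone, unc-6 had no summit, unc-40 had 1, mig-6 had 1, and ina-1 and mig-2 had 2 each. Similar counts there do not mean the same sites. The replicate 1 summits at rank 8027 in unc-5, 4434 in mig-6, 7220 at ina-1 and 8246 in the mig-2 window matched no optimal summit. Without replicate 1 each gene had as many as in the optimal list. The causes were not tested. No paired analysis was possible because there is 1 group. Unknown depth limits every gene without a summit: a peak below the lists cannot be told from none.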

Other observations

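With 10 kb upstream, 8 of the 10 genes had an optimal summit, against 54.7% of all genes, whose bodies are shorter. Beyond 5 kb, the region from 5 to 10 kb upstream held 6 more optimal summits, at 3 of the 10 genes. Upstream of unc-40 there were 3, and 1 of these, 7648 bp from its start, ranked 551 with a signal of 576, stronger than any summit inside the 10 windows. Its ranks in replicates 1 and 2 were 1017 and 467, and its nearest protein-coding start, 3005 bp away, was that of pamn-1. Upstream of ced-10, which had no optimal summit in its own window, there were 2. The one at rank 174, with signal 977, lay 9943 bp from the start of ced-10 and 214 bp from that of unc-33, a gene of axon guidance. It ranked 523 and 124 in replicates 1 and 2. The other, at rank 5227, lay 6306 bp from the start of ced-10 and 1053 bp from that of unc-33. Replicate 2 had it at rank 3706, and no match was found for it in replicate 1. The remaining summit, 9819 bp upstream of unc-6 at rank 4861, was nearest to the start of F41C6.6. Which gene, if any, these summits act on was not tested.

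The intronic summit of mig-6 in replicate 1, at rank 4434, had no counterpart in the pooled list, although that list was called on both replicates together.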
